A study of Mus musculus with 3 samples.

Results

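The collagen chain genes were followed on 3 arrays of spleen that carried islet grafts. Members were all genes whose array symbol is Col, a number, the letter a and a number, read by probes that are not controls. They were 43 genes of 34797 names on the array, read by 68 of 55681 probes. Of these, 29 genes gave a signal well above background on at least 1 array and are called detected. They were divided by the known assembly of their chains into 11 fibrillar, 8 basement membrane and 24 other collagens, of which 8, 6 and 15 were detected.

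The recipients were streptozotocin-induced diabetic male C57BL/6 mice, labelled C57BL/6J, adult at use, and received syngeneic islets, 25 into the splenic pulp by direct puncture and 100 beneath the kidney capsule (SP25+KC100). Sample 1 was spleen taken immediately after transplantation (day 0), and Sample 2 was spleen taken on day 2. Sample 3 was spleen taken on day 139 from recipients whose kidney with the capsular graft had been removed by nephrectomy on day 100. The treatment protocol of the labels has SP25+KC100 in every sample, whereas their characteristics name the capsular graft for the day 139 spleen alone. An untreated spleen, a sham-punctured spleen, a spleen without streptozotocin and blood glucose were not analysed here. All samples had received the streptozotocin, the needle puncture and the islets, but the time since each of these rose with the sampling day. Their parts in the differences between days therefore cannot be told apart. The age of the recipients at sampling was not analysed here, and it cannot be told apart from the day after transplantation. Each condition was 1 one-color array, and the number of mice behind it is not given. There were therefore no replicates and no test, and differences are described for these 3 arrays alone.

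Collagens are trimeric proteins in which each chain carries glycine at a fixed interval along the triple helix, so that the chains can wind around one another. Fibrillar collagens such as types I, III and V pack into the fibers of connective tissue, and type IV builds the sheet of the basement membrane. In the spleen, collagen fibers form the capsule, the trabeculae and the reticular scaffold on which lymphocytes move, while type IV lines vessels and sinuses. Fibroblasts, reticular cells, smooth muscle cells, pericytes and mesothelial cells are known makers of the fibrillar chains.

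The repeat of the triple helix can be read directly in some of the probes, which are the 60-base sequences the array uses to measure each gene. A run of at least 4 glycine codons, each followed at a distance of 9 bases by the next, was present in 4 of the 68 collagen probes (5.88%), against 29 of all 55681 probes (0.0521%). These 4 probes are shown because they display the feature that the family shares. They are written 5′ to 3′ with the glycine codons of the run in capitals.
Col14a1: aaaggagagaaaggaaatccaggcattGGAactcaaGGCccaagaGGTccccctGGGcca
Col15a1: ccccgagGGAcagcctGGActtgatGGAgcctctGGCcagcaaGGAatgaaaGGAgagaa
Col16a1: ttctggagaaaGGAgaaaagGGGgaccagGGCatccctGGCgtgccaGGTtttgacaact
Col25a1: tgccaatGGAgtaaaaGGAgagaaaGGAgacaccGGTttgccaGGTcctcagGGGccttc
On the mm9 build of the array annotation they lie on the plus strand at chr15:55347733-55347792, chr4:47283786-47283845, chr4:129756457-129756516 and chr3:130270497-130270556. Such a run is the known pattern of triple-helix coding sequence, although the probes were not placed on an annotation of exons here. The Col14a1 probe shown is the dimmer of its gene's 2 detected probes, and the Col15a1, Col16a1 and Col25a1 probes shown were not well above background on any array. The other 64 collagen probes held no such run.

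Upstream sequences of Col1a2 and Col3a1 are shown because they encode chains of types I and III, the main fibrillar collagens of connective tissue, and were found in the promoter table. The 250 bases upstream of the RefSeq start (GRCm38.p6) are written 5′ to 3′ on the strand of the gene. The motifs CCAAT and TATAAA, searched on both strands, are in capitals.
Col1a2 (chr6:4505368-4505617, plus strand): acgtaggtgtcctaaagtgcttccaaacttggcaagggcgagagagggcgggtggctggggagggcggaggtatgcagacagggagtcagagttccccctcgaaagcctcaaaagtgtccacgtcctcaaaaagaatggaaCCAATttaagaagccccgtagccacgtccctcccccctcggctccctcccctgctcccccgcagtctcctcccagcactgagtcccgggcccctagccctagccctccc
Col3a1 (chr1:45311288-45311537, plus strand): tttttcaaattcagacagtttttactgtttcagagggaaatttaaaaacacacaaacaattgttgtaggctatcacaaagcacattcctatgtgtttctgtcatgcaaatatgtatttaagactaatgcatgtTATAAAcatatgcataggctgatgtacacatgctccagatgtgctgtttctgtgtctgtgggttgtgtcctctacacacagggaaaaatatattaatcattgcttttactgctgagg
The Col1a2 window held CCAAT and no TATAAA, and the Col3a1 window held TATAAA and no CCAAT. Among the 27 promoters of the 24 detected collagens in the RefSeq table, CCAAT was present in 10 (37.0%), TATAAA in 2 (7.41%) and GGGCGG, a GC box searched on both strands, in 18 (66.7%). Among all 32851 promoters the shares were 33.8%, 12.4% and 32.7%. Of the 9 promoters of 8 collagen genes that were called higher on day 2, CCAAT was present in 2, TATAAA in 1 and GGGCGG in 6. A match describes the letters of the window only, and the motifs do not overlap one another. Col1a1 was not matched in the promoter table.

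All values below are signals after quantile normalization, which gives the 3 arrays the same distribution. The value after ± is the error estimate of the scanner software for that array, which covers the spot itself and not the labeling or the mice. Differences are log2 ratios. A gene was called higher at a ratio of at least 1.5 with a Z-score of at least 2, and lower at a ratio of at most 0.66 with a Z-score of at most -2. The Z-score relates the log2 ratio of a gene to the SD over the 1000 probes of most similar mean signal, so it sets a gene against other probes and not against replicate mice. Probes well above background numbered 30291, 29982 and 28088 in Samples 1 to 3, and 0 were saturated. The Col4a1 probe was printed as 10 spots, whose coefficient of variation was 3.19%, 4.15% and 5.10% on the 3 arrays after 1 outlier spot of Sample 1 was left out. All 9 B cell genes and all 8 red pulp genes listed were detected, as the label spleen requires. The B cell list had medians of 0.19, 1.05 and 0.81 in the 3 comparisons. Of its 9 members, 1, 4 and 3 were called higher, against 2.11%, 3.05% and 2.98% of all genes, and 0 were called lower. All 9 had a ratio above 1 on day 139 over day 0 and over day 2. The 4 B cell genes of largest change were Fcer2a, Cd79a, Cd22 and Ms4a1. The part of this shift in the collagen signals of day 139 was not tested. The red pulp list had medians of -0.05, -0.02 and -0.05, with Spic and Hmox1 called lower on day 2. In that list, 1 gene was called lower on day 139 over day 0 and 1 higher on day 139 over day 2.

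The chains of collagen types I and III were far higher on day 2 than at either other time. Col1a1, the major chain of type I collagen, had a signal of 1179 ± 118 on day 0, 11182 ± 1118 on day 2 and 1361 ± 136 on day 139. The day 2 signal was 9.49 times that of day 0, a log2 difference of 3.25 ± 0.20 with a Z-score of 8.20. Col1a2, the second chain of type I, went from 6270 ± 627 to 29485 ± 2949 and 7573 ± 757. Col3a1, which forms type III and is typical of reticular fibers, had signals of 785 ± 78.6, 9030 ± 903 and 1334 ± 134. Each of these genes was high in Sample 2 and low in Samples 1 and 3, with gaps many times the error of the signals. The day 2 over day 0 log2 ratios were 2.23 ± 0.20 for Col1a2 and 3.52 ± 0.20 for Col3a1. Ordered by that ratio over all 22851 detected genes, Col3a1 was at place 24, Col1a1 at place 35 and Col1a2 at place 168 from the top. On day 139 over day 2, the log2 ratios were -3.04, -1.96 and -2.76 for Col1a1, Col1a2 and Col3a1, and Col1a1 was at place 55 from the bottom of all genes. In bulk RNA, more cells of a type and more RNA per cell cannot be told apart.

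Type V collagen, which joins type I in mixed fibrils and governs their diameter, behaved in the same direction with all 3 chains. Col5a1 had 622 ± 62.2 on day 0, 1316 ± 132 on day 2 and 379 ± 38.2 on day 139. Col5a2 was dim, with 37.0 ± 4.60, 89.5 ± 9.39 and 33.5 ± 5.14. Col5a3 had 47.5 ± 5.78, 292 ± 29.4 and 42.7 ± 6.19. All 3 were called higher on day 2 than on day 0, by log2 ratios of 1.08 ± 0.20, 1.27 ± 0.23 and 2.62 ± 0.23. All 3 were also called lower on day 139 than on day 2, by -1.79, -1.42 and -2.78. The Z-score of Col5a2 on day 2 was 2.02, just past the limit, and its call was lost with 75th percentile scaling, spike-in scaling, normexp background correction or 1 SD over all probes. Its call on day 139 was lost with the last 3 of these. Between day 139 and day 0, the type V chains differed by -0.71 ± 0.20, -0.14 ± 0.29 and -0.15 ± 0.27, and none was called.

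Not all fibrillar genes took part. Col27a1, a fibrillar chain known from cartilage and developing tissue, had 58.2 ± 6.66, 71.0 ± 7.80 and 43.3 ± 6.27, and was not called in any comparison. Col11a2, a chain of cartilage type XI, lay between 59.3 and 66.8 on the 3 arrays. Col2a1 and Col11a1, the other cartilage chains, were not well above background on any array, nor was Col24a1.

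**Figure D1:**
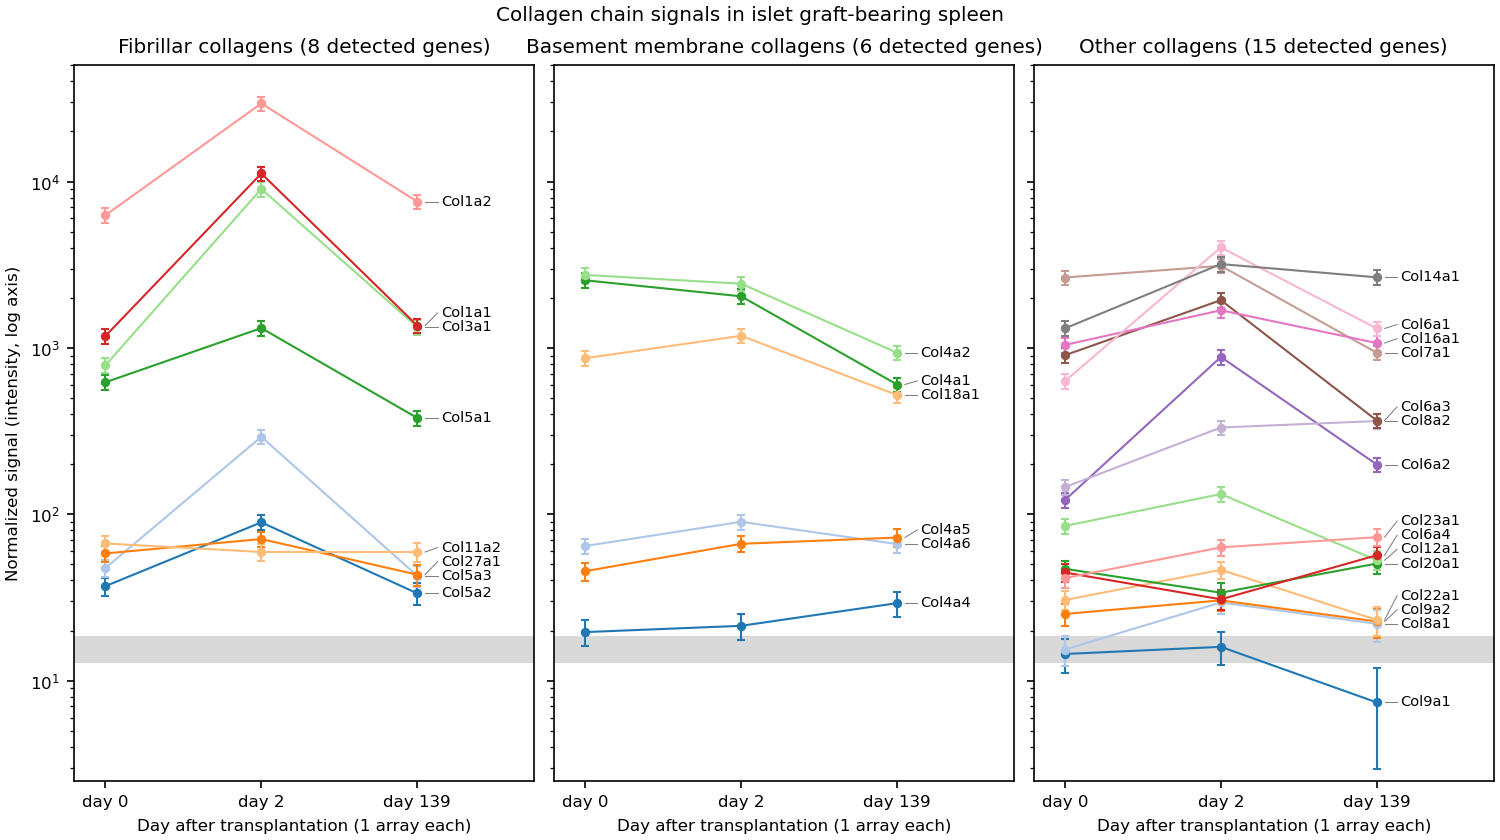
Normalized signal of the 29 detected collagen genes on a log axis at day 0, day 2 and day 139 (1 array each), in 3 panels by class, with bars for the scanner's error estimate and a grey band for the lowest signals well above background (12.9 to 18.2). Col1a1, Col1a2 and Col3a1 peak on day 2, whereas Col4a1 and Col4a2 stay near their day 0 level on day 2 and are lowest on day 139.

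The network-forming chains of type IV followed another course. Col4a1 had 2549 ± 255 on day 0, 2043 ± 204 on day 2 and 603 ± 60.4 on day 139. Its obligate partner Col4a2 had 2746 ± 275, 2433 ± 243 and 936 ± 93.7. Both were low in Sample 3 only. The day 2 over day 0 log2 ratios were -0.32 ± 0.20 and -0.17 ± 0.20, and neither was called. Day 139 over day 0, they were -2.08 ± 0.20 for Col4a1 and -1.55 ± 0.20 for Col4a2, and both were called lower. Both were also called lower on day 139 than on day 2, by -1.76 and -1.38. With spike-in scaling, or with 1 SD over all probes, the Col4a2 calls were lost in both comparisons with day 139, and those of Col4a1 remained.

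The minor chains of type IV, which in the kidney form a separate network, were not called by their brightest probe. Col4a5 had 45.5 ± 5.79, 66.5 ± 7.48 and 72.5 ± 8.58. Col4a6 ranged from 64.5 to 90.1 and Col4a4 from 19.6 to 29.2, while Col4a3 was not detected. Col18a1, whose C-terminal fragment is endostatin, had 867 ± 86.7, 1183 ± 118 and 521 ± 52.2. Its log2 ratio of -1.18 ± 0.20 for day 139 over day 2 passed the ratio limit, but its Z-score of -1.88 did not pass. Col15a1, its closest relative, was not detected.

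Type VI collagen forms beaded filaments between fibrils and cells from one each of the chains a1, a2 and a3 or its relatives. Col6a1 had 631 ± 63.2 on day 0, 4019 ± 402 on day 2 and 1309 ± 131 on day 139. Col6a2 had 122 ± 12.5, 882 ± 88.3 and 199 ± 20.3. Col6a3 had 904 ± 90.4, 1937 ± 194 and 366 ± 36.9. These 3 chains shared the high day 2 signal, 6.37, 7.24 and 2.14 times that of day 0, but they did not share the day 139 level. Day 139 over day 0, Col6a1 was called higher at 1.05 ± 0.20, Col6a3 was called lower at -1.30 ± 0.20, and Col6a2 was not called at 0.71 ± 0.21. The Z-scores of Col6a1 and Col6a3 there were 2.02 and -2.08. Both of these calls were lost with normexp background correction or with 1 SD over all probes, and that of Col6a3 also with spike-in scaling. Col6a4 went the other way, with 44.7 ± 5.30, 30.8 ± 4.27 and 56.7 ± 6.95, and was not called, while Col6a5 and Col6a6 were not detected.

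Col7a1, the chain of the anchoring fibrils that tie basement membranes to the tissue beneath, had the course of type IV. Its signals were 2650 ± 265, 3115 ± 312 and 935 ± 93.6, low in Sample 3 only. It was called lower on day 139, at -1.50 ± 0.20 against day 0 and -1.74 ± 0.20 against day 2. The call against day 0 was lost with spike-in scaling or with 1 SD over all probes.

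Among the fibril-associated collagens with interrupted triple helices (FACIT), which sit on the surface of fibrils, Col14a1 stayed high. It had 1310 ± 131 on day 0, 3191 ± 319 on day 2 and 2656 ± 266 on day 139. It was called higher on day 2 at 1.28 ± 0.20, and on day 139 it stood 1.02 ± 0.20 above day 0 with a Z-score of 1.65, which did not pass. From day 2 to day 139 it differed by -0.26 ± 0.20. The other FACIT genes were not called in any comparison by their brightest probe. The second probe of Col16a1 passed both limits on day 2 over day 0, with a log2 ratio of 1.29 and a Z-score of 2.52, and Col16a1 was also called there with the median over detected probes or a scaled median absolute deviation. Col16a1 had 1042, 1684 and 1069, each with an error near 10%, and Col12a1 had 85.1 ± 9.20, 132 ± 13.7 and 52.9 ± 6.94. Both were highest in Sample 2, and both passed the ratio limit alone on day 2 over day 0. Col22a1 had 30.5 ± 4.10, 46.4 ± 5.43 and 23.2 ± 4.56. Col20a1 ranged from 33.8 to 50.6 and Col9a2 from 22.7 to 30.4. Col9a1 had 14.5 ± 3.28, 16.0 ± 3.52 and 7.40 ± 4.44 and was well above background in Sample 2 alone, so its order over the samples is not settled. Col9a3 and Col19a1 were not detected.

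Of the short-chain collagens, Col8a2, known from the corneal and vascular matrix, was higher at both later times. It had 146 ± 14.8 on day 0, 332 ± 33.4 on day 2 and 364 ± 36.6 on day 139, and its log2 ratios over day 0 were 1.19 ± 0.21 and 1.32 ± 0.21, each with a Z-score of 2.12. Both calls were lost with the median over detected probes, 1 SD over all probes or a window of 250 probes, that on day 2 also with spike-in scaling and that on day 139 also with normexp background correction. Its partner Col8a1 had 15.4 ± 3.22, 29.5 ± 4.21 and 21.9 ± 4.77 and was not called, and Col10a1, the chain of hypertrophic cartilage, was not detected. Of the transmembrane collagens, Col23a1 had 41.4 ± 5.26, 63.3 ± 7.10 and 72.9 ± 8.59 and was not called, whereas Col13a1, Col17a1 and Col25a1 were not detected. Col28a1, which falls in none of these classes here, was not detected either. Of the 14 genes that were not detected, 3 were fibrillar, 2 of the basement membrane and 9 of the other classes.

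Counted over the family, 11 of the 29 detected collagens were called higher on day 2 than on day 0 and 0 were called lower. The background was 2.11% of the 22851 detected genes called higher and 2.76% called lower. The 11 were 6 of 8 fibrillar genes, 0 of 6 basement membrane genes and 5 of 15 others (Col6a1, Col6a2, Col6a3, Col8a2 and Col14a1). By the ratio limits alone, 16 collagens were higher and 0 lower, against 9.94% and 9.87% of all genes. Each of the 13 alternatives kept Col1a1, Col1a2, Col3a1, Col5a3, Col6a1 and Col6a2 among the genes called, whereas with 1 SD over all probes Col5a1, Col5a2, Col6a3, Col8a2 and Col14a1 were no longer called.

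Day 139 against day 0 gave fewer calls than day 2 against day 0, and they had no common direction. Of the 29 genes, 2 were called higher (Col6a1 and Col8a2) and 4 lower (Col4a1, Col4a2, Col6a3 and Col7a1), against 3.05% and 2.34% of all genes. Col4a1 was the gene called under each of the 13 alternatives. By the ratio limits alone, 7 were higher and 8 lower, against 13.6% and 13.7% of all genes. With spike-in scaling, which moved the median of all genes in this comparison to 0.38, 4 collagens were called higher (Col3a1 and Col14a1 in addition) and 1 lower, and over all genes the calls went from 698 higher and 535 lower to 1283 and 306.

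The comparison of day 139 with day 2 shares the day 2 array with the first, so the calls of these comparisons are not independent. Here 0 collagens were called higher and 12 lower, against 2.98% and 1.77% of all genes. The 12 were the same 6 fibrillar genes, Col4a1 and Col4a2, and Col6a1, Col6a2, Col6a3 and Col7a1. Each alternative kept 10 of them, and Col4a2 and Col5a2 were lost in some. By the ratio limits alone, 1 was higher (Col6a4) and 18 lower, against 12.8% and 13.5%. With spike-in scaling the calls over all genes went from 682 higher and 404 lower to 1392 and 195.

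The classes differed most on day 2. The median log2 ratio of day 2 over day 0 was 1.75 for the fibrillar genes (range -0.17 to 3.52), 0.29 for the basement membrane genes (range -0.32 to 0.55) and 0.64 for the others (range -0.54 to 2.86), against 0.02 over all genes. The fibrillar median was 1.47 above that of the basement membrane, where the median error of a single gene's ratio was 0.22 and 0.21. For day 139 over day 2, the medians were -1.88, -0.81 and -0.66, against -0.03 over all genes. The ranges there were -3.04 to -0.00, -1.76 to 0.45 and -2.40 to 0.88. For day 139 over day 0, the medians were -0.15, -0.35 and 0.11, against -0.00 over all genes. The ranges were -0.71 to 0.76, -2.08 to 0.67 and -1.50 to 1.32. Of the 6 basement membrane genes, 3 had a ratio above 1 and 3 below, so their median describes no common shift. The first 2 medians turned positive with spike-in scaling, to 0.19 and 0.04, while remaining below the all-gene median of 0.38.

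**Figure D2:**
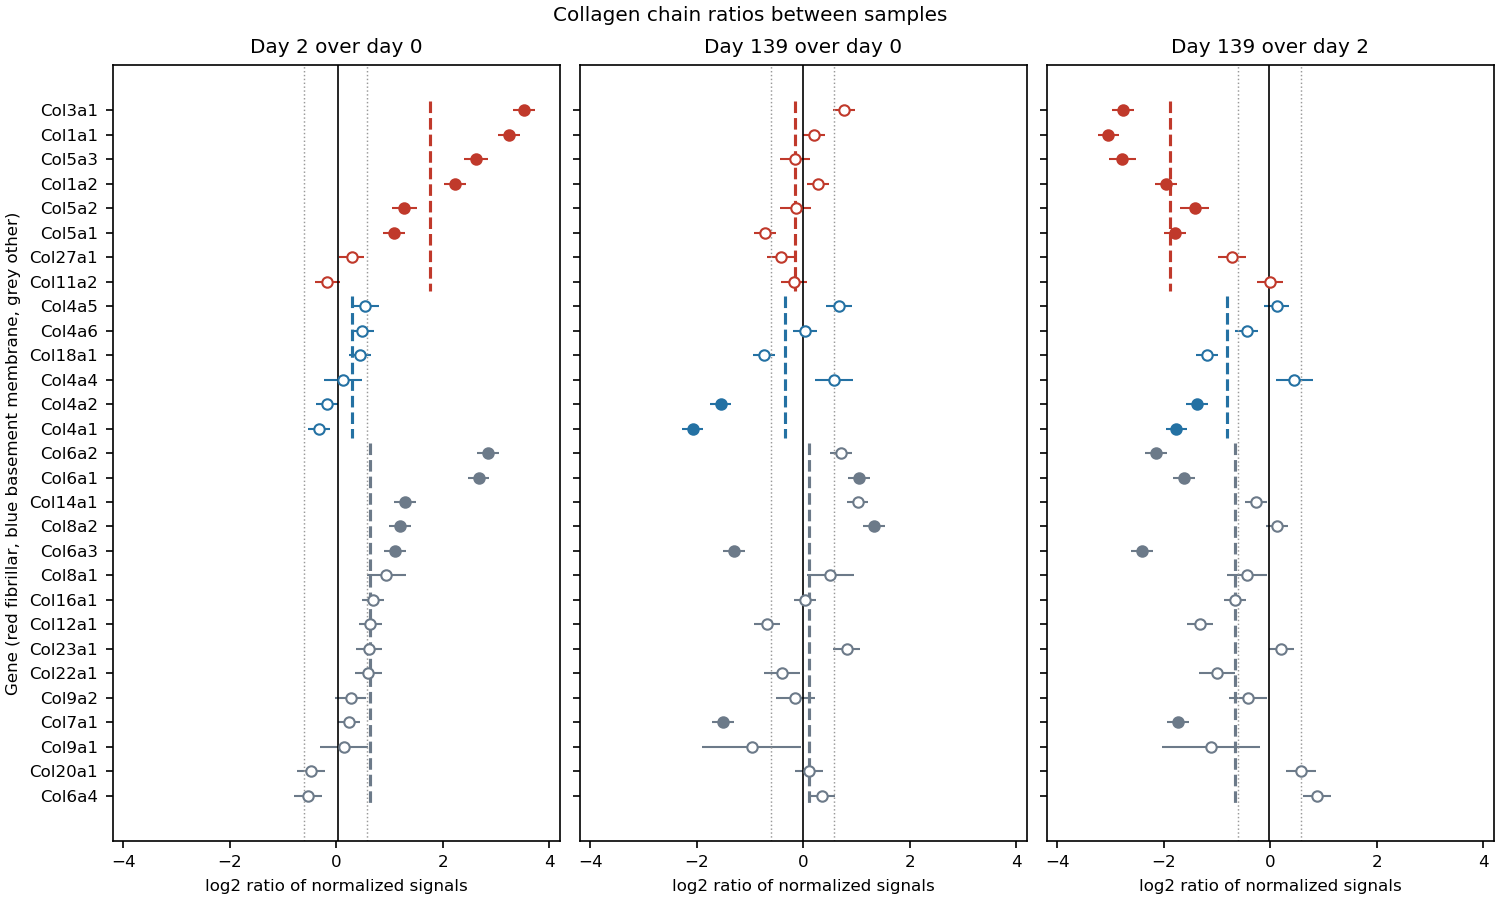
log2 ratio of the normalized signals for each detected collagen gene in the 3 comparisons, with bars for the error from the scanner's estimates; filled points passed the ratio and Z-score limits, dashed lines are class medians, the black line is the median of all genes and dotted lines are the ratio limits. The fibrillar genes lie to the right on day 2 over day 0 (median 1.75) and to the left on day 139 over day 2 (median -1.88), and most lie near 0 on day 139 over day 0.

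The order of the 3 samples was similarly uneven between classes. The highest of the 3 signals was that of day 2 in 7 of 8 fibrillar genes, 2 of 6 basement membrane genes and 11 of 15 others, in all 20 of 29 (69.0%), against 34.6% of all genes. Genes called higher on day 2 over day 0 and lower on day 139 over day 2 were 9 of the 29 collagens (31.0%), against 150 of all genes (0.656%). They were the 6 fibrillar genes and Col6a1, Col6a2 and Col6a3. Day 139 gave the lowest signal for 14 of 29 collagens, against 37.6% of all genes.

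Several collagen genes lie next to each other in the genome by the RefSeq table. Col4a1 and Col4a2, head to head on chromosome 8, differed by -0.32 and -0.17 on day 2 over day 0 and by -2.08 and -1.55 on day 139 over day 0. Col6a1 and Col6a2 on chromosome 10 were close on day 2, at 2.67 and 2.86. Col3a1 and Col5a2 on chromosome 1 shared the direction but not the size, at 3.52 and 1.27. Col4a5 and Col4a6 on the X chromosome had 0.55 and 0.48. On day 2 over day 0, 24 of all 29 collagens had a ratio above 1, so a shared sign there says little about neighbours. The signs were opposite for Col3a1 and Col5a2 on day 139 over day 0, at 0.76 ± 0.20 and -0.14 ± 0.29. They were also opposite for Col4a6 and Col4a5 on day 139 over day 2, at -0.44 ± 0.22 and 0.12 ± 0.24. The Col5a2 and Col4a5 values were smaller than their errors, so their signs are not settled. The second Col4a6 probe gave 0.99 there.

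For 9 genes, 2 different probes were detected, which gives a check on the brightest probe of these genes alone. The 11 fibrillar genes were read by 11 probes, so none of them had a second probe. Col4a1, Col4a2, Col6a1, Col6a3 and Col7a1 had no second probe either. They had the same sign in 8 of 9 genes on day 2 over day 0, in 8 of 9 on day 139 over day 0 and in 7 of 9 on day 139 over day 2. The second Col22a1 probe was well above background on neither day 0 nor day 139, so its sign between those days carries no weight. The 2 probes of Col18a1 gave -0.73 and -0.66 on day 139 over day 0, and those of Col14a1 gave 1.28 and 0.96 on day 2 over day 0. Col23a1 was the gene whose probes opposed each other against day 0, at 0.61 and -0.43 on day 2 and at 0.82 and -0.33 on day 139. The second Col4a6 probe was not well above background on day 0 and was called higher on day 139, at least 3.94-fold with a Z-score of 2.55, where the brightest probe gave 0.04 on the log2 scale. The second Col6a2 probe was at least 2.55-fold higher on day 2. The second probes of Col6a2, Col8a2 and Col14a1 were not called in any comparison. The probes of Col4a6 and of Col8a2 opposed each other on day 139 over day 2.

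**Figure D3:**
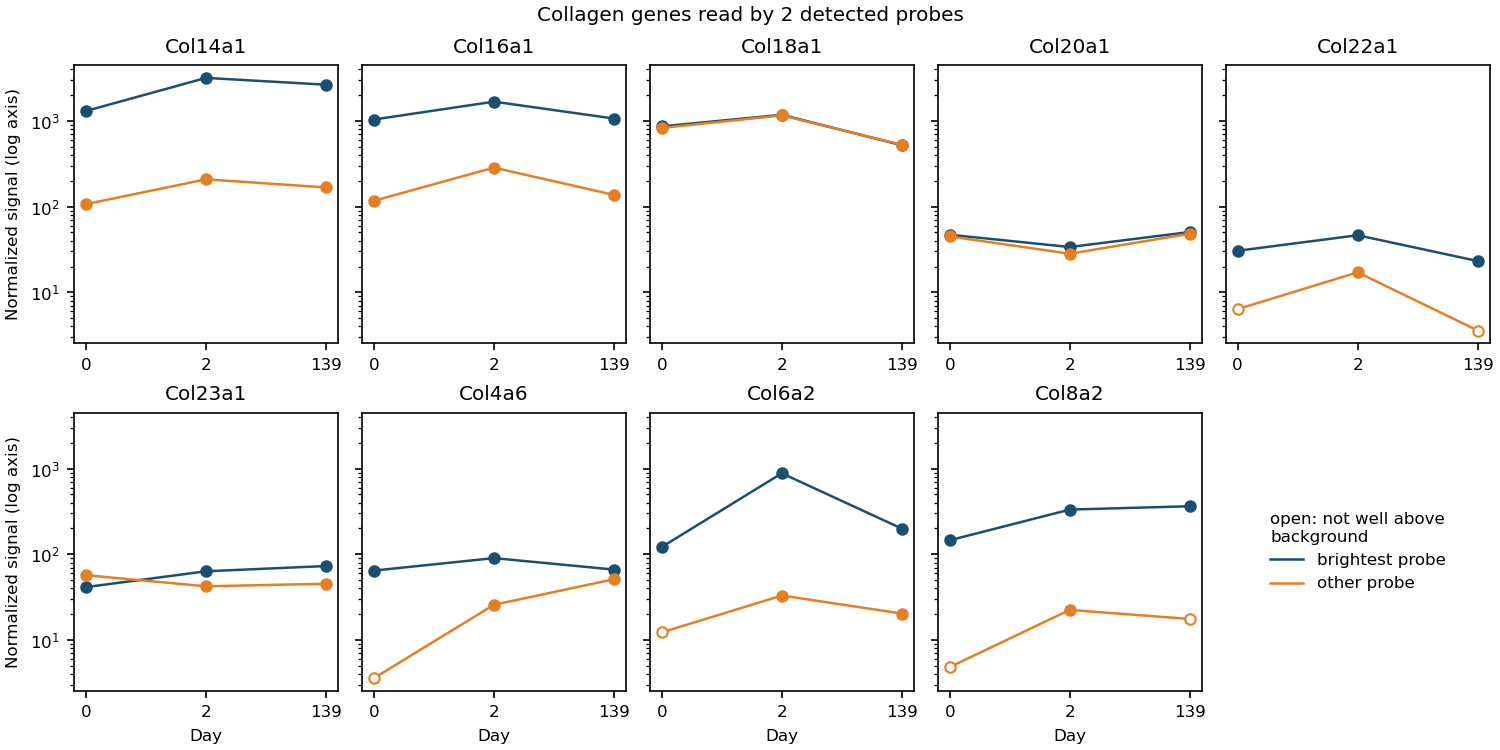
Normalized signal on a log axis by day for the 9 collagen genes with 2 detected probes (1 array per day), blue for the brightest probe and orange for the other, open where a probe was not well above background. The lines run alike for Col14a1, Col16a1, Col18a1 and Col20a1, and cross for Col23a1.

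Chains become fibers only after they have been hydroxylated, folded, trimmed and crosslinked, and the genes of these steps were set beside the collagens. Of all genes, 2.11% were called higher and 2.76% lower on day 2 over day 0. The shares were 3.05% and 2.34% on day 139 over day 0, and 2.98% and 1.77% on day 139 over day 2. The all-gene medians in these comparisons were 0.02, -0.00 and -0.03. These values are the background of every list below, and 0 calls in a list this short is near it. Of 18 detected genes of collagen modification and folding, 3 were called higher on day 2 than on day 0 and 0 lower, with a median log2 ratio of 0.39. Leprel2, a prolyl hydroxylase family member, had 137, 350 and 223 in Samples 1 to 3. Fkbp10, a procollagen chaperone, had 1696, 3500 and 1254, and Fkbp14 of the same family had 310, 547 and 282. Serpinh1, the collagen chaperone of the endoplasmic reticulum known as HSP47, had 1882, 3174 and 1036 and was called on day 139 over day 2 alone, where it was lower by a log2 ratio of -1.61. On day 139, 2 of the 18 were called lower than on day 2 and 0 differed from day 0 by the criteria, with medians of -0.49 and -0.18.

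Of 12 detected genes of procollagen processing and crosslinking, all 12 had a ratio above 1 on day 2 over day 0, 4 were called higher, and the median was 0.94. Bmp1, the procollagen C-proteinase, had 1279, 2550 and 1018, and Adamts2, the N-proteinase, had 1017, 2442 and 801. The crosslinking oxidases Loxl1 and Loxl2 had 497, 1274 and 766 and 625, 1921 and 300. Bmp1, Adamts2 and Loxl2 were called lower on day 139 than on day 2, with a list median of -0.81, and 0 of the 12 were called between day 139 and day 0, with a median of 0.04.

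The proteins that bind to fibrils divided on day 139. Of 15 detected, 4 were called higher on day 2 over day 0 and 1 lower, with a median of 0.40. On day 139 over day 0, 4 were higher and 2 lower, with a median of 0.21, and on day 139 over day 2, 4 were higher and 4 lower, with a median of -0.35. The 4 higher ones on day 139 were small leucine-rich proteoglycans, which coat fibrils and regulate their width. Dcn had 1585, 2067 and 9670, Lum had 17.3, 37.5 and 180, Fmod had 63.5, 74.2 and 366, and Ogn had 106.9, 109 and 516. Bgn and Prelp, of the same family, were not called, at 0.58 and -0.09 on day 139 over day 0. The members called lower in that comparison were Fn1, at -1.47, and Thbs1, at -2.12. Dcn, Lum, Fmod and Ogn were high in Sample 3 only, where the fibrillar median was -0.15 relative to day 0. Among the 15 basement membrane partners, 3 were called higher on day 2 (Lama4, Lamb1 and Hspg2), with a median of 0.17. Day 139 over day 0, 0 of the 15 were called and the median was -0.05, while Col4a1 and Col4a2 were called lower. With 2.34% of all genes called lower there, 0 calls among 15 genes is near the background. On day 139 over day 2, Lama1 was called higher, Lamb1 lower, and the median was -0.19.

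Among the collagen receptors 1 gene was called, while a growth factor pathway of collagen had calls in both directions. Of 11 collagen receptors, Itga11, an integrin chain that binds fibrillar collagen, was the only one called, with 143, 439 and 237 and a log2 ratio of 1.62 on day 2 over day 0. The list medians were -0.09, -0.58 and -0.40 in the 3 comparisons. Of 16 genes of the TGF-beta pathway, a main inducer of collagen synthesis, Tgfb2 and Tgfb3 were called higher on day 2, with 52.0, 172 and 98.0 and with 121, 291 and 491. In the 3 comparisons, 2, 2 and 0 of the 16 were called higher, and 1 was called lower in each. The shares of all genes were 2.11%, 3.05% and 2.98% called higher and 2.76%, 2.34% and 1.77% called lower. Ltbp2, a latent TGF-beta binding protein homolog, had 1013, 1410 and 2957 and was called higher on day 139 than on day 0, as was Tgfb3. The list medians were -0.06, 0.26 and 0.34.

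Markers of cells that make collagen were compared in the same way. Of 10 listed genes of smooth muscle cells and pericytes, 9 were detected and Lmod1 was not. On day 2, 6 of them were called higher than on day 0, with a median of 1.48, and on day 139, 7 were called lower than on day 2, with a median of -1.72. Acta2, the smooth muscle actin also made by myofibroblasts, had 3364, 24804 and 3500. Cnn1 had 526, 2285 and 351, Actg2 had 565, 2682 and 341, and Tagln had 13382, 31416 and 8423. On day 2 over day 0, 8 of the 9 had a ratio above 1, and Rgs5 had a ratio below 1. Rgs5 had 21.4, 12.7 and 28.3 and was not well above background on day 2. Cspg4, also dim, had 36.6, 45.2 and 26.9, and neither of these genes was called in any comparison. The summed signal of the list was 25939, 83098 and 22052, and day 139 over day 0 had 0 calls and a median of -0.45. This list thus had its highest sum in Sample 2, as the type I and III chains did, and its part in their signals was not tested.

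The 11 fibroblast and reticular cell genes, all detected, did not share that course. Their medians were 0.01, 0.16 and 0.02, and their summed signal was 50767, 45374 and 49374. Ly6c1, with 25186, 19885 and 25215, and Vim, with 10450, 10534 and 6896, made up most of that sum. The sum therefore says little about the other members. On day 2 over day 0, 2 of the 11 were called higher (Pdpn and Dpt) and 2 lower. Pdgfra had 1189, 649 and 423 and was called lower on day 139 than on day 0. Pi16, a marker of universal fibroblasts, had 1673, 765 and 653 and was called lower at both later times. Of the 12 endothelial genes, all detected, 0 were called in any comparison, with medians of -0.14, -0.30 and -0.28 and summed signals of 38898, 38403 and 31564. Egfl7 had 15330, 13283 and 10652 and Stab2, typical of sinus endothelium, had 6533, 7530 and 6109. On day 139 over day 0, 10 of the 12 had a ratio below 1. With 2.34% of all genes called lower there, 0 calls among 12 genes is near the background, and the part of these cells in the lower signals of Col4a1, Col4a2 and Col7a1 was not tested.

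Most genes of the mesothelium, the surface layer of the splenic capsule, were called higher at both later times. Of 10 detected, 8 were called higher on day 2 over day 0, 9 on day 139 over day 0 and 7 on day 139 over day 2, and the summed signal was 2136, 3900 and 7475. Upk3b, not well above background on day 0, was at least 3.52-fold higher on day 2 and at least 35.5-fold higher on day 139. Wt1, which made up most of the day 0 sum, was not called, with 1492, 1443 and 1057. The bounds on day 2 and day 139 were 3.90 and 14.2 for Upk1b, 4.04 and 15.2 for Lrrn4 and 2.12 and 18.1 for Gpm6a. The summed signal of the list was highest in Sample 3, as the signals of Dcn, Lum, Fmod and Ogn were, whereas the type I and III chains were highest in Sample 2. Their part in the collagen signals was not tested.

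Transplanted islets can bring their own matrix and remnants of pancreas, and islet and exocrine markers moved between the samples as well. Of 15 islet endocrine genes, 13 were detected and Pdx1 and Slc2a2 were not. On day 2 over day 0, 11 were called higher, with a median of 2.07, and on day 139 over day 2, all 13 were called lower, with a median of -2.89. Chga had 884, 4711 and 392.2, Chgb had 250, 2783 and 327, and Sst had 140, 590 and 61.3. Ttr, not well above background on day 0, was at least 39.4-fold higher on day 2. The summed signal of the list was 63962, 109191 and 33440. It was highest in Sample 2, like the fibrillar collagens, and its part in their signals was not tested. Of 16 exocrine genes, 14 were detected, and Cela2a and Ptf1a were not. Their summed signal was 1252, 1144 and 2365, with 0, 7 and 5 called higher in the 3 comparisons and 0 lower. This sum was highest in Sample 3, unlike that of the islet list, and the origin of the exocrine signals was not tested. Amy2a5 had 21.3, 43.4 and 404, and on day 139 Cpa1 was at least 4.92-fold, Try4 at least 3.35-fold and Try5 at least 3.16-fold higher than on day 0, where they were not well above background.

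**Figure D4:**
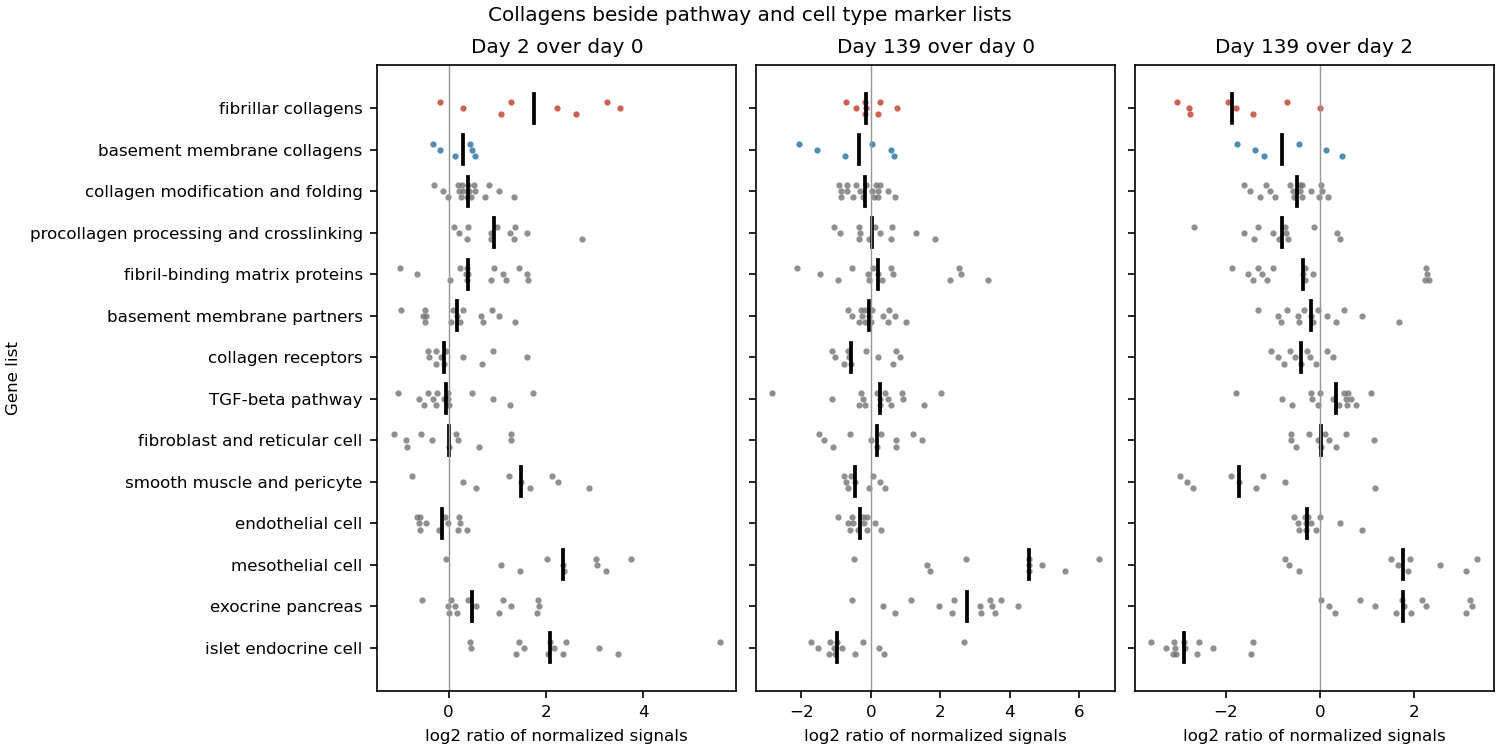
log2 ratio of the normalized signals in the 3 comparisons for each detected member of the fibrillar (red) and basement membrane (blue) collagens and of 6 pathway and 6 cell type marker lists (grey points), with a black bar for the median of each list. On day 2 over day 0 the medians of the fibrillar, smooth muscle, mesothelial and islet lists lie between 1.48 and 2.36, and those of the fibroblast and endothelial lists at 0.01 and -0.14.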

How the data were processed

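Total RNA of spleen from day 0, day 2 and day 139 was measured on 1 one-color 60-base oligonucleotide array each. The authors deposited the scanner output, in which each spot has an intensity on a linear scale. Per the file headers, Feature Extraction 10.7.1.1 had subtracted background and spatial trend; the submitters' processing notes name 9.5.1.1. The authors also deposited a table of normalized intensity values, used as an alternative. Labels and paper name different RNA kits.

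Control and outlier-flagged spots were left out, the spots of a probe were averaged, and 55679 probes were quantile normalized over the 3 arrays, floored at 1 and taken to log2. Detection required 1 array or more on which the probe was well above background, and 32108 probes of 22851 genes met this. Each gene took its brightest detected probe, by mean log2 signal over the arrays. Where a probe was not well above background on the lower array, a bound is given against its own signal there or that array's lowest signal of a well-above-background probe, whichever is higher. Signal errors are the software's estimate, which includes 10% of the signal. The number of arrays limits the precision. No p-value was computed.

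The collagen genes, their classes, the pathway and marker lists and the rule for naming genes were chosen with earlier results of these data known. Every detected collagen is named, with its signal on each array where it passed a ratio limit in any comparison or was among the 12 brightest, and otherwise by its range. Of each other list, up to 4 called genes of largest change are named, or the 2 brightest where none was called. Further genes are named where a count or a sum needed it. One gene that this rule names is not reported here. All 43 collagen symbols were found in a RefSeq table of GRCm38.p6, used for names and neighbours, and 35 in its promoter table.

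The alternatives were 75th percentile or spike-in scaling, limma's normexp background correction (offset 50), the deposited table, flooring each array at its dimmest well-above-background signal, no detection filter or one on all 3 arrays, keeping outlier-flagged spots, the median over detected probes, a Z-score from a scaled median absolute deviation, from 1 SD over all probes or from 250 probes, and ratio limits of 2 and 0.5. Calls were tested on simulated data before use. The calculations ran in numpy 2.4.6 and pandas 2.3.3 under Python 3.11.15.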

Additional observations from a re-analysis of the deposited data

How the results depend on the processing

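Under 13 alternatives, 69 of 78 counts of called genes stayed within 1.5 times the values given, and 90 of 108 class medians moved by less than the error of a single gene. The 69 include counts that were 0 under every setting, those called lower on day 2 over day 0 and higher on day 139 over day 2. With 1 SD over all probes, 6 collagens were called higher on day 2 than on day 0, and on day 139 against day 0, 0 were called higher and 1 lower. In that last comparison, spike-in scaling gave 4 higher and 1 lower, and the number called higher was 0 with normexp background correction, 1 with the median over detected probes or a window of 250 probes, and 4 with a scaled median absolute deviation.

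For day 2 over day 0, the fibrillar median was 1.33 with normexp and 1.08 with no detection filter, the median of the other collagens was 0.31 with normexp and 0.94 with the median over detected probes, and the fibrillar minus basement membrane difference was 0.79 with no detection filter. For day 139 over day 0, spike-in scaling gave 0.19 (fibrillar), 0.036 (basement membrane) and 0.45 (others), and the basement membrane median was 0.032 with no detection filter and -0.0584 with the median over detected probes. For day 139 over day 2, spike-in scaling gave -1.46, -0.38 and -0.21, no detection filter gave -1.42, -0.55 and -0.26, normexp gave -0.24 for the others, and the median over detected probes gave -0.52 for the basement membrane. With spike-in scaling the all-gene medians were -0.03, 0.38 and 0.41, and relative to these the class medians were 1.72, 0.23 and 0.61, then -0.20, -0.35 and 0.07, then -1.87, -0.79 and -0.63. No detection filter adds genes that were not well above background, while the cause of the other shifts was not tested. Col9a1, which was not well above background on day 0 and day 139, reversed on day 139 from -0.97 to 0.33 over day 0 and from -1.11 to 0.19 over day 2, with each array floored at its dimmest signal well above background. Over single collagens, 525 ratios stayed within their error, 79 moved and 2 reversed, and of the medians of the pathway and marker lists 325 stayed and 53 moved.

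With 1 array per condition, the spread between mice and a batch effect were not estimated, and ratios of genes with signals near the background are the least precise. No paired analysis was possible because each condition was a single array.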
